A study of Bos taurus with 6 samples.

Results

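Interferon tau, the pregnancy-associated glycoproteins and the trophoblast Kunitz domain proteins are the proteins that the ruminant trophoblast secretes towards the mother. Their genes were examined in bovine (Bos taurus) blastocysts, and 25 of the 36075 rows of the expression table were taken by the words of their gene descriptions or by the gene name PAG2. Of these rows, 2 belonged to interferon tau (IFNT3 and IFN-tau-c1), 20 to the pregnancy-associated glycoproteins and 3 to the trophoblast Kunitz domain proteins (TKDP1, TKDP2 and TKDP4). IFNT2 was also looked for, but no row carried that name, and it was not analysed here. Another pair of rows, IFNT and IFN-TAU, writes interferon-tau with a hyphen and so falls outside these words. IFNT is described beside the others because its level was high, and it was added after its values were seen.

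The control blastocysts developed from oocytes matured for 22 h without melatonin (MT), and the MT-treated blastocysts from oocytes matured with 1e-07 mol/L MT. MT was in the maturation medium only, and in both groups the oocytes came from slaughterhouse ovaries and were fertilized and cultured in vitro. Each group had 3 libraries, and each library was a pool of 3 blastocysts, so single embryos cannot be told apart. By the methods, the libraries of a group came from 3 production runs, and oocytes of 1 run were divided at random among the groups, so control and MT-treated libraries can share a run. Which libraries do is not given in the sources used here. The methods name the Smart-seq2 protocol and the labels a TruSeq kit, so the library chemistry is uncertain.

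Interferon tau is the signal by which a cattle embryo announces itself. It is a type I interferon made by the trophectoderm, the outer cell layer of the blastocyst, and it acts on the uterine lining through the receptor chains IFNAR1 and IFNAR2 to keep the corpus luteum alive, while inducing interferon-stimulated genes such as ISG15. The pregnancy-associated glycoproteins are secreted relatives of the aspartic peptidases, most of them probably inactive as enzymes, and their presence in maternal blood is used as a pregnancy test. An ancient group, to which PAG2 belongs, is expressed across the trophectoderm, and a modern group is expressed mainly in the binucleate cells of the later placenta. The trophoblast Kunitz domain proteins resemble inhibitors of serine peptidases.

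Levels are given in TPM, transcripts per 1000000, which scales the reads on a gene to transcript length and library total, so that levels of different genes can be set side by side. TPM keeps no read depth, and the depth of the libraries was not used here, so a gene listed at 0 may have been absent or not captured. In the control libraries 8854 to 8953 genes were above 0, and in the MT-treated libraries 14372 to 14408. Of the 16 markers of the trophectoderm, 15 were above 0 in the control and all 16 in the MT-treated libraries. Their summed level lay between 15451 and 15792 TPM in control and between 13395 and 13741 TPM in MT-treated libraries, most of it from the keratins KRT8 and KRT18 and from ATP1B3. On the TPM as listed, KRT8 and ATP1B3 were lower with MT while KRT18 was higher. Of the 16 markers, 11 were called higher and 5 lower, near the 61.6% and 34.1% of all tested genes, with a median log2 fold change of 0.39 beside 1.12. Of all tested genes, 33.8% were at 0 in every control library and had to be higher, which bears on the second median. With each library set to the same median, 12 markers were called higher and 3 lower. CDX2 and DSP reached 1 TPM only with MT and TFAP2A only in control, so these calls were set by the requirement for testing. CDX2, a defining transcription factor of that layer, was listed at 0 in every control library. In such pools, a change in the number of trophectoderm cells and a change in RNA per such cell cannot be told apart. TPM is also scaled to the library total, so the level of a gene depends on the other genes.

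Of the 25 genes, 6 were above 0 in at least 1 library, and these 6 also passed the requirement for testing, 1 TPM or more in 3 or more libraries. The other 19 were listed at 0 in all 6 libraries, as were 54.8% of all rows. IFNT3, PAG2 and TKDP1 were detected in control blastocysts, and IFNT3, IFN-tau-c1, PAG2, PAG20 and the glycoprotein gene MGC157408 in MT-treated blastocysts. By limma on log2(TPM + 1) with Benjamini-Hochberg adjustment over the 11953 tested genes, and with calls at an adjusted p under 0.05, 4 of the 6 were higher with MT. IFNT3 and TKDP1 were lower, IFNT3 not so after quantile normalization or median centring (each library set to the same median). Over all tested genes, 61.6% were called higher and 34.1% lower, so a call alone sets none of these genes apart. IFN-tau-c1, PAG20 and MGC157408 passed the requirement only through the MT-treated group and TKDP1 only through the control group, so these 4 had to differ. The groups did not overlap for any of the 6, as for 96.1% of all tested genes. For each of the 6, the exact two-sided permutation test gave p = 0.1, the smallest value that 3 libraries against 3 allow.

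**Figure D1:**
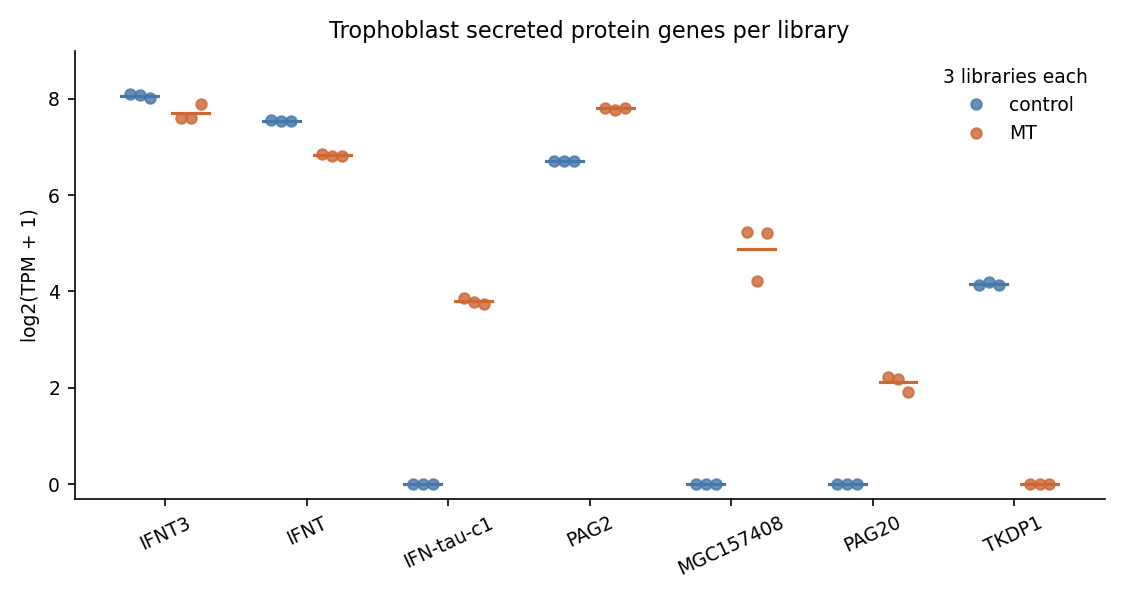
Level of each detected gene, as log2(TPM + 1), with 1 point per library (3 control, 3 MT-treated) and a line at the group mean. On the TPM as listed, IFNT3 (not after median centring) and IFNT sit lower and PAG2 higher with MT, IFN-tau-c1, MGC157408 and PAG20 are at 0 in all control libraries, and TKDP1 is at 0 in all MT-treated libraries.

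IFNT3 (ENSBTAG00000050661) was the most abundant of the 25 genes in control blastocysts. Its level was 275, 271 and 257 TPM without MT and 194, 193 and 236 TPM with MT. All 3 MT-treated values were below the lowest control value, but the third MT-treated library stood nearer to the controls than to the other two. IFNT3 fell from a mean of 267 ± 9.63 to 208 ± 24.3 TPM (SD, n = 3 per group), with log2 fold change -0.37, SE 0.08 and limma adjusted p = 0.00526, but this call was lost under 2 other scalings. A shift of -0.48 on the log2 scale separated the groups at the median of the 5988 genes with at least 1 TPM in every library. Relative to that shift the log2 fold change of IFNT3 was 0.11 (SE 0.08, limma adjusted p = 0.228), and after quantile normalization it was -0.19 (limma adjusted p = 0.0675). Ranked by TPM from the highest, IFNT3 was gene 561, 574 and 599 in the control libraries and gene 701, 700 and 585 in the MT-treated libraries, so the ranks of the groups overlapped.

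IFNT (ENSBTAG00000048549), described in the table as interferon-tau 3g, measured 188, 185 and 184 TPM without MT and 114, 112 and 112 TPM with MT. The libraries of each group lay close together and far from the other group. IFNT fell from a mean of 186 ± 1.74 to 113 ± 1.52 TPM (SD, n = 3 per group), with log2 fold change -0.72, SE 0.02 and limma adjusted p = 6.46e-08. It remained lower after quantile normalization (-0.46) and relative to the median shift (-0.24, limma adjusted p = 3.24e-05). The level of IFNT3 was 1.39 to 1.47 times that of IFNT in control libraries and 1.70, 1.73 and 2.11 times in the MT-treated libraries. Interferon tau genes are near-identical copies, so reads can be split between them in either direction, and whether reads that fit several copies were counted is not stated. The other hyphenated row, IFN-TAU, was at 0 in every library.

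IFN-tau-c1 (ENSBTAG00000059274), a further interferon tau copy, was listed at 0 in the 3 control libraries and reached 13.5, 12.8 and 12.3 TPM with MT. It was tested only through the MT-treated group and had to be called higher. It made up between 4.97% and 6.50% of the summed TPM of IFNT3 and IFN-tau-c1 in MT-treated blastocysts. In the RefSeq annotation IFNT3 and IFN-tau-c1 lie on either side of IFNT2. Genes listed at 0 in all control libraries were 33.8% of all tested genes. Together IFNT3 and IFN-tau-c1 had 267 ± 9.63 TPM in control and 221 ± 23.9 TPM in MT-treated blastocysts (SD, n = 3 per group). With IFNT added the sums were 453 ± 11.1 and 333 ± 23.2 TPM. No sum was formed after quantile normalization or median centring, the scalings under which IFNT3 was not called lower. The other type I interferons in the table, 9 rows of alpha, beta, omega and kappa genes, were at 0 in every library.

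**Figure D2:**
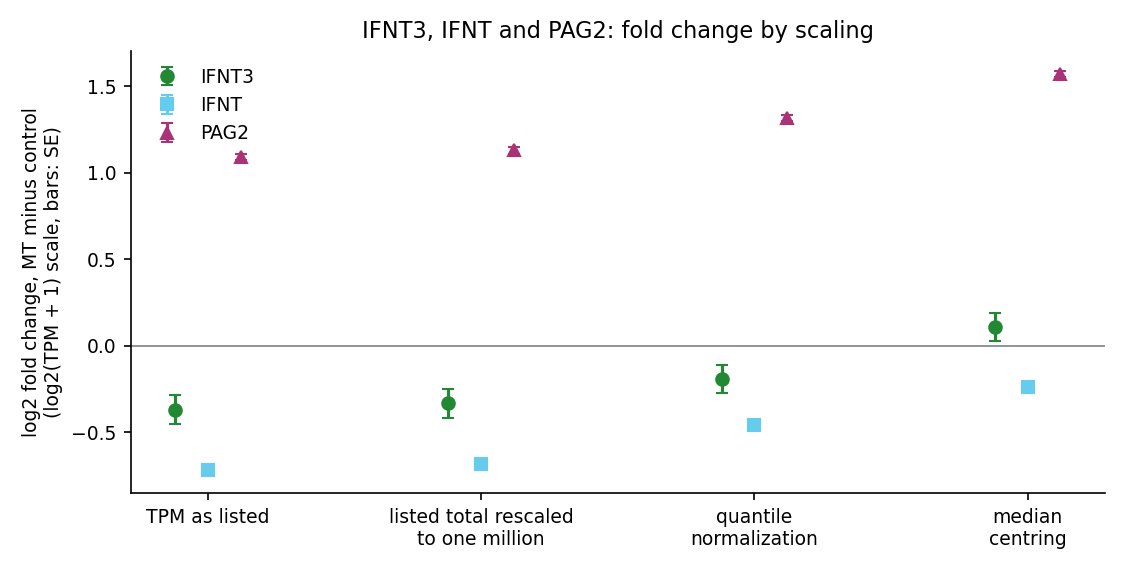
Log2 fold change (MT minus control) of IFNT3, IFNT and PAG2 with its standard error, for TPM as listed and for 3 other scalings of the libraries. PAG2 stays above 0 and IFNT below 0 throughout, and IFNT3 crosses from -0.37 as listed to 0.11 after median centring.

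PAG2 (ENSBTAG00000033096), of the ancient group, was the only glycoprotein gene above 0 in control blastocysts. Its level was 104, 104 and 103 TPM without MT and 224, 218 and 225 TPM with MT. Both groups were tight, and no MT-treated value came near a control value. PAG2 rose from 104 ± 0.497 to 222 ± 3.66 TPM (SD, n = 3 per group), which is 2.14 times the control mean (log2 fold change 1.09, SE 0.02, limma adjusted p = 9.92e-09). The median log2 fold change of all tested genes was 1.12. Of these genes, 33.8% were at 0 in all control libraries and had to be higher, unlike PAG2, which was detected in both groups. PAG2 was higher under each scaling, with a log2 fold change of 1.32 after quantile normalization and 1.57 relative to the median shift. Ranked by TPM from the highest, it was gene 1426 to 1448 in control and gene 609 to 626 in MT-treated libraries.

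The levels of IFNT3 and PAG2 lay closer together with MT than without it. In every control library IFNT3 was highest, followed by IFNT, PAG2 and TKDP1, and the ranges of these 4 genes did not overlap. The level of PAG2 was 0.379, 0.384 and 0.402 times that of IFNT3 in the control libraries and 1.15, 1.13 and 0.952 times in the MT-treated libraries. With MT the ranges of PAG2 and IFNT3 overlapped, so these neighbours did not differ beyond their spread. Below them followed IFNT, MGC157408, IFN-tau-c1 and PAG20, each with a range apart from the next.

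MGC157408 (ENSBTAG00000047892), described as a pregnancy-associated glycoprotein without a number, was listed at 0 without MT and reached 36.8, 17.6 and 36.1 TPM with MT. It was tested only through the MT-treated group and had to be called higher. The second MT-treated library was well below the other two. The coefficient of variation was 36.2% in MT-treated blastocysts, higher than that of 97.2% of the 9308 genes with a mean of at least 5 TPM there, whose median was 4.50%. For PAG2 the coefficient of variation was 1.65% in the same libraries, so the spread of MGC157408 was not shared by the most abundant glycoprotein gene. PAG20 (ENSBTAG00000050440), of the modern group, was listed at 0 without MT and reached 3.70, 3.54 and 2.77 TPM with MT. It too was tested only through the MT-treated group. It lay above only 28.5% to 31.8% of detected genes, and after quantile normalization it was no longer called (limma adjusted p = 0.27). That normalization gave the control zeros a value of 1.11 on the log2(TPM + 1) scale, so it is no measure of direction for a gene at 0 in control.

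The 20 glycoprotein genes lie on a single chromosome in RefSeq. PAG2 lies between PAG10 and PAG12, both of the ancient group and both listed at 0 in all libraries. PAG20 is next to PAG21, and MGC157408 is next to PAG19, which were also at 0 in all libraries. Of the 5 ancient genes, 1 was above 0 in each group (PAG2), and of the 13 modern genes, none was above 0 in control and 1 with MT (PAG20). MGC157408 and MGC157405 were assigned to neither group, and MGC157405 was at 0 in all libraries. The summed level of the 20 genes was 104 ± 0.497 TPM in control and 255 ± 14.3 TPM in MT-treated blastocysts (SD, n = 3 per group). PAG2 gave all of that sum in control and 84.7%, 91.2% and 85.3% of it in the MT-treated libraries. Glycoprotein genes resemble each other closely as well, so reads of PAG20 and MGC157408 could come from other copies, and their levels are uncertain.

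**Figure D3:**
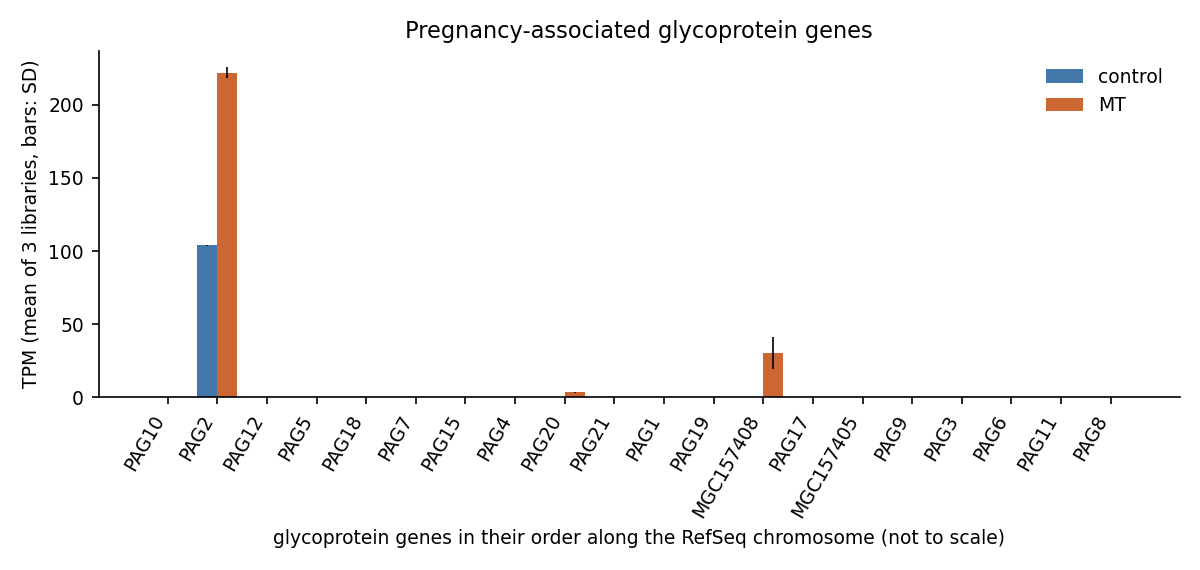
Mean TPM (bars, SD as lines, 3 libraries each) of the 20 pregnancy-associated glycoprotein genes in the order in which they lie along the RefSeq chromosome. PAG2 stands at 104 TPM in control and 222 TPM in MT-treated blastocysts, MGC157408 and PAG20 appear with MT, and the other 17 genes are at 0.

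TKDP1 (ENSBTAG00000018122) went the opposite way. Its level was 16.6, 17.3 and 16.6 TPM without MT, and with MT it was listed at 0 each time. It was tested only through the control group and had to be called lower. A zero in all MT-treated libraries was seen for 3.01% of all tested genes. In control TKDP1 lay above 46.2% to 47.4% of detected genes, near the middle of the distribution. TKDP2 and TKDP4 were at 0 in all libraries, and in RefSeq TKDP4 lies between TKDP1 and TKDP2. The direction of TKDP1 is fixed by the zeros with MT, so the other scalings give no check of it. Relative to the median shift, 70.4% of all tested genes were called higher and 25.4% lower. With quantile normalization 5550 of all tested genes were higher and 5311 lower, in place of 7367 and 4071, and 639 of the lower genes were at 0 in all control libraries.

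Transcription factors and coactivators that act on interferon tau genes or specify the trophectoderm were collected in a list of 25 genes, of which 20 could be tested. Of these, 10 were higher and 7 lower with MT, with a median log2 fold change of 0.16, but 6 of the 10 higher genes reached 1 TPM only with MT and 1 of the 7 lower genes, TFAP2A, only in control, so these had to be called that way. Over all tested genes, 61.6% were higher and 34.1% lower, with a median of 1.12. The 3 that were not called on the TPM as listed were POU5F1, which is known to hold interferon tau expression down, with 190 ± 1.49 and 193 ± 1.83 TPM (SD, n = 3 per group), ESRRB and JUND. All 3 were called higher relative to the median shift (POU5F1 with log2 fold change 0.50), and POU5F1 and ESRRB also after quantile normalization. CDX2, an activator of interferon tau, was at 0 without MT and measured 17.2, 15.0 and 16.1 TPM with MT. ETS2, another activator, was at or under 0.03 TPM in every library and was not tested. DLX3 and JUN, which also act on interferon tau promoters, fell from a mean of 32.9 ± 1.55 to 4.31 ± 0.233 TPM and from 55.5 ± 1.06 to 6.49 ± 0.476 TPM (SD, n = 3 per group).

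GATA2, a factor of the trophectoderm that also drives interferon tau, rose from 7.07 ± 0.506 to 49.1 ± 1.29 TPM (SD, n = 3 per group). The largest falls of the list were in TFAP2A, tested only through the control group, from 36.1 ± 3.99 to 0.490 ± 0.0520 TPM, and in TEAD1, a partner of the Hippo effector YAP, from 80.5 ± 0.993 to 2.92 ± 0.117 TPM (SD, n = 3 per group). On the log2(TPM + 1) scale the largest rises were in the chromatin remodeller SMARCA4 and the coactivator CREBBP, both listed at 0 in control. With MT, SMARCA4 measured 34.2, 35.2 and 34.6 TPM and CREBBP 17.2, 25.2 and 26.2 TPM. EP300, a close relative of CREBBP, was called lower.

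The receptor of interferon tau was represented unevenly. IFNAR1 was at 0 without MT and measured 9.19, 4.15 and 7.06 TPM with MT, with the second MT-treated library lowest. It was tested only through the MT-treated group and had to be called higher. IFNAR2 was at 0 in all 6 libraries. JAK1, the kinase bound to IFNAR2, fell from a mean of 18.2 ± 0.451 to 9.84 ± 0.263 TPM (SD, n = 3 per group), and TYK2, the kinase bound to IFNAR1, did not exceed 0.03 TPM in any library. STAT2 and IRF9, which take part in carrying the signal to the nucleus, were at 0 in control and low with MT, STAT2 at 0.09 to 0.13 TPM and IRF9 at 0.63 to 1.13 TPM.

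Of the 15 genes in the receptor and signalling list, 9 were tested, 6 were higher and 3 lower, with a median log2 fold change of 2.66, beside 61.6% higher, 34.1% lower and a median of 1.12 over all tested genes. Of the 6 higher genes, 5 were tested only through their level with MT and had to be higher, 4 of them at 0 in all control libraries. The exception was PIAS1. The median of the list depended on the settings, being 1.37 with a minimum of 5 TPM and 0.95 without a filter. After quantile normalization it was 0.27, and with pseudocount 0.1 it was 4.48. On the log2(TPM + 1) scale the largest rises were in IRF3 and PTPN1, both under 1 TPM in control. IRF3 was at 0 in control and measured 15.7, 15.9 and 15.1 TPM with MT. PTPN1, a phosphatase that acts on the receptor's kinases, rose from 0.753 ± 0.119 to 18.8 ± 0.716 TPM (SD, n = 3 per group). STAT3 fell from a mean of 12.2 ± 0.346 to 7.73 ± 0.530 TPM (SD, n = 3 per group) and was not called relative to the median shift. The list holds activators and inhibitors of the signal alike. SOCS1, PIAS1, PTPN1 and PTPN6, which restrain it, were all called higher, all but PIAS1 tested only through the MT-treated group. As listed, PTPN11, another phosphatase of the list, fell from a mean of 95.2 to 68.4 TPM.

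Interferon-stimulated genes are those that cells switch on when the receptor is engaged, and some of them are also expressed without interferon. Of the 51 genes of this list, 48 had a row and 18 were tested, of which 15 were higher and 3 lower with MT, with a median log2 fold change of 3.30. Over all tested genes 61.6% were higher, 34.1% lower and 33.8% at 0 in every control library, with a median of 1.12. Of the 15 higher genes, 14 were at 0 in every control library, the exception being IFI6. These 14 were tested only through their level with MT and had to be higher, so the filter set most of this count and its median. At 0 in all MT-treated libraries were 27 of the 48, among them the well-known response genes MX1, MX2, OAS2 and RSAD2. ISG15, a ubiquitin-like protein and the best known response gene of early pregnancy, was at 0 without MT and reached 93.2, 88.9 and 91.5 TPM with MT. PSMB9, a subunit of the immunoproteasome, was at 0 in control and measured 46.5, 43.2 and 47.0 TPM with MT. The lower genes were LGALS3BP, from 43.1 ± 0.610 to 8.11 ± 0.875 TPM, IFI35, from 35.2 ± 1.61 to 8.24 ± 0.776 TPM (SD, n = 3 per group), and B2M. The control libraries, in which these 14 genes were at 0, had the higher levels of IFNT3 and IFNT as listed, though not of IFNT3 after median centring. Any link between interferon tau and these genes was not tested. After quantile normalization 11 genes of the list were higher and 6 lower, but 3 of the 6 (HERC5, IRF1 and DHX58) were listed at 0 in every control library and above 0 in every MT-treated library, and were lower only because the zeros were given a value.

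**Figure D4:**
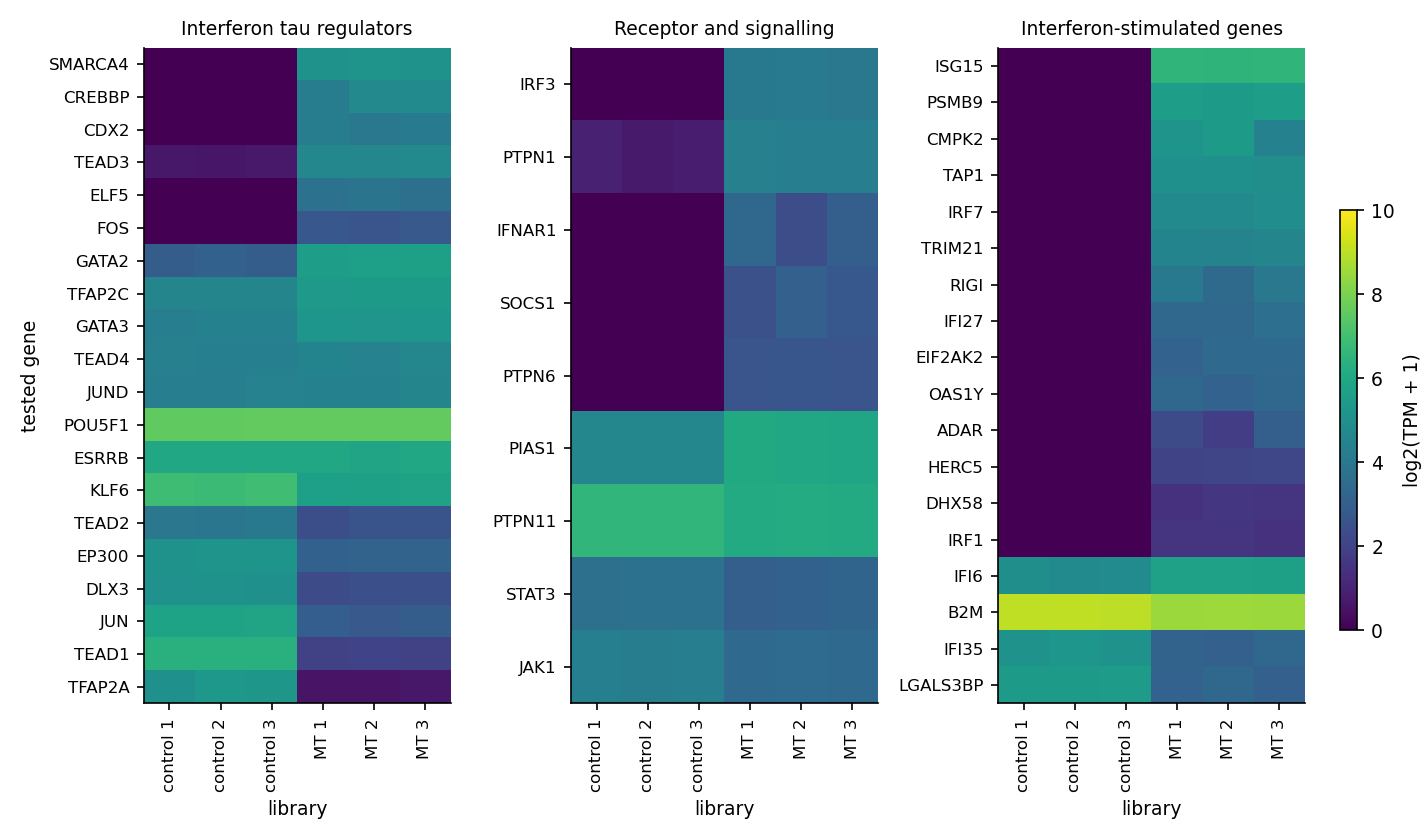
Levels as log2(TPM + 1), from dark (0) to bright (10), of the tested genes of 3 lists in each of the 3 control and 3 MT-treated libraries, ordered by their log2 fold change. The dark blocks are genes at 0 in the control libraries, 5 of the regulators, 4 of the receptor and signalling genes and 14 of the interferon-stimulated genes.

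The relatives of the glycoproteins and of the Kunitz domain proteins outside the trophoblast families were examined for comparison. Of 7 tested aspartic peptidases, 4 were higher and 3 lower (median log2 fold change 1.09), beside 61.6%, 34.1% and 1.12 over all tested genes, and 3 of the 4, all but CTSD, were tested only through the MT-treated group. PSEN2, a catalytic subunit of gamma-secretase, and NAPSA, the peptidase napsin A, were at 0 without MT and measured 17.1 to 17.6 and 3.90 to 4.57 TPM with MT, although NAPSA was not called after quantile normalization. CTSD, the lysosomal cathepsin D, rose from 41.4 ± 0.857 to 89.5 ± 2.95 TPM (SD, n = 3 per group). The largest falls were in the signal peptide peptidases SPPL2A and HM13, from 30.8 ± 0.641 to 20.2 ± 0.778 TPM and from 84.4 ± 2.93 to 57.7 ± 1.84 TPM (SD, n = 3 per group), of which HM13 was not called relative to the median shift. After quantile normalization 2 aspartic peptidases were higher and 4 lower, among the latter SPPL2B, which had a mean of 0.11 TPM in control and 3.90 TPM with MT, and relative to the median shift 5 were higher and 1 lower. The median of the list changed sign, to -0.26, after quantile normalization and was -0.33 with a minimum of 5 TPM.

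Of 5 tested Kunitz domain genes other than TKDP1, 4 were higher and 1 lower (median log2 fold change 1.06), where all tested genes had 61.6%, 34.1% and 1.12. APP, the amyloid precursor, and TFPI, an inhibitor of coagulation, were at 0 without MT and measured 37.3, 42.9 and 37.8 TPM and 33.6, 35.6 and 32.2 TPM with MT, the only group through which they were tested. SPINT1, an inhibitor of epithelial serine peptidases, was the 1 lower gene, from 32.0 ± 0.933 to 21.6 ± 1.43 TPM (SD, n = 3 per group), and it was not called relative to the median shift.

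Markers of other cells that the pools could hold were set beside these results. Summed over their lists, markers of the inner cell mass had 473 to 478 TPM in control and 437 to 439 TPM in MT-treated libraries, but its genes went both ways, with 3 of 8 tested called higher and 3 lower, beside 61.6% and 34.1% of all tested genes. DPPA3 fell from a mean of 196 to 108 TPM and SALL4 from 56.8 to 26.6 TPM, while KLF4 rose from 18.1 to 83.8 TPM, NANOG from 0 to 8.68 TPM and SOX2 from 0.00667 to 6.54 TPM. NANOG and SOX2 were tested only through the MT-treated group, and LIN28B, the other lower gene, only through the control group. Markers of the hypoblast had 717 to 720.1 and 1011 to 1016 TPM, most of the difference from FN1, with means of 206 and 461 TPM. Of 7 tested, 6 were called higher and 1 lower, beside the same shares of all tested genes, and 3 of the 6, GATA6, PDGFRA and HNF4A, were tested only through the MT-treated group. Cumulus and granulosa markers had 230 to 236 and 202 to 206 TPM, almost all of it from CYP11A1, HSD3B1 and FSHR, while CYP19A1 and LHCGR did not exceed 0.09 TPM. All 15 maternal oocyte transcripts with a row were at 0 in control, and 5 of them were above 0 with MT, with a sum of 6.44 to 6.88 TPM. The part of these cell types in the levels of the secreted protein genes was not tested.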

How the data were processed

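Bovine blastocysts were measured in 6 libraries, 3 control and 3 MT-treated, and groups and replicate numbers were taken from the sample labels. According to the methods, the authors filtered reads with fastp, aligned them with STAR 2.7.9a to ARS-UCD1.3 (the labels name ARS-UCD1.2) and counted them on genes with featureCounts (Subread 1.6.3). The authors deposited TPM per gene, rounded to 2 decimals. How counts became TPM, and whether multi-mapping reads or strand were used, is not given in the sources used here. TPM keeps no depth, so no counting error is given.

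Genes that reached 1 TPM or more in 3 or more libraries were fitted on log2(TPM + 1) in R 4.3.3 with limma 3.58.1 (lmFit, then eBayes with an intensity trend), two-sided, with Benjamini-Hochberg adjustment over 11953 genes at 0.05. The count test that the methods name, DESeq2, needs counts and was not run. Fold changes are on the log2(TPM + 1) scale, which understates the change of low genes, and for a gene at 0 throughout a group are printed only for PAG20 after quantile normalization. List medians do include such genes. Single genes were also compared by exact permutation. The fit was tested on simulated data. Figures were drawn with matplotlib 3.10.9 under Python 3.11.15.

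The 25 members and the gene lists were chosen with earlier results of these data known. Lists came from general knowledge, and so did the ancient and modern groups of glycoproteins. Named were all detected members, the 2 largest rises and falls of each list of related genes (not of the cell type markers), and IFNAR1, IFNAR2, ISG15, CDX2 and ETS2. Rises and falls were ranked by log2 fold change. Other listed genes were named for their role after their values were seen. RefSeq (ARS-UCD2.0) was matched through NCBI gene numbers for all 25 members and used only for neighbouring genes, since its build differs from that of the table. No sequences were used here. Of 2 lists, 1 gene each is not reported here. P-values measure the spread between these pools, which was small. Pearson correlations across tested genes were 0.998 to 0.999 among control and 0.991 to 0.993 among MT-treated libraries. Between the groups they were 0.544 to 0.546.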

Additional observations from a re-analysis of the deposited data

How the results depend on the processing

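Alternatives were quantile normalization, a library total rescaled to 1000000, median centring, pseudocount 0.1, a stricter filter (5 TPM) and none, eBayes without trend, a replicate block, and each library left out in turn, and the addition of IFNT and IFN-TAU was chosen after the data were seen. In place of 2 detected genes, 1 was called lower after quantile normalization and 1 after median centring. IFNT3 then had log2 fold changes of -0.19 (no longer called) and 0.11 (reversed), and PAG20 had -0.060 after quantile normalization, a sign that carries no information because the control zeros were given a value of 1.11 there. The calls of PAG2 and IFNT kept their direction in all 14 alternatives fitted. Those of MGC157408, IFN-tau-c1 and TKDP1, at 0 throughout a group, had a direction that was fixed beforehand. The difference in summed TPM (MT minus control) moved from 152 to 169 for the glycoproteins and from -16.8 to -18.0 for the Kunitz family with a rescaled total, to 118 for the glycoproteins with PAG2 alone, and from -46.8 to -119.9 for interferon tau with IFNT and IFN-TAU. No such sum was formed after quantile normalization or median centring. Leaving out 1 library kept the calls of IFNT3 and PAG2, and the log2 fold change of IFNT3 lay between -0.46 and -0.32.

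With a minimum TPM of 5, 2 aspartic peptidases (in place of 4) were higher, and 2 were higher after quantile normalization. That normalization called 6 interferon-stimulated genes lower in place of 3, the added ones being genes at 0 in all control libraries. Median centring called 1 signalling gene and 1 aspartic peptidase lower (in place of 3 each) and 0 Kunitz genes lower (in place of 1).

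Both groups were treated side by side in each production run, but no source says that a replicate number marks a run, and same-numbered libraries did not deviate together (correlations across genes from -0.01 to 0.06). With the replicate block 4 detected genes were higher and 2 lower, as without it. Depth was not used here, so no limit is given for a gene at 0.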

Other observations

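Hormones of the later placenta and their receptors formed another list of 18 genes, of which 8 had a row. The placental lactogen and prolactin-related genes with a row were at 0 in all 6 libraries. The receptors of prolactin and growth hormone, PRLR and GHR, were at 0 without MT. With MT, PRLR measured 19.1, 20.0 and 17.8 TPM and GHR 10.2, 11.3 and 12.9 TPM.

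The genes whose levels lay nearest to those of IFNT3 over the 6 libraries, by Euclidean distance of log2(TPM + 1) among genes with a symbol, were DPM1 (0.245), BUB3 (0.246) and SPTSSA (0.267). Those nearest to PAG2 were LAPTM4A (0.192), TMEM126A (0.199) and DNMT1 (0.235). With 2 groups of 3 libraries, such likeness describes a shared level and a shared difference between the groups.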
